A study of Homo sapiens with 18 samples.

Results

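The clade B serpins are the intracellular branch of the serpin family of protease inhibitors, and 8 of them were examined here: SERPINB1, SERPINB2, SERPINB3, SERPINB4, SERPINB5, SERPINB6, SERPINB8 and SERPINB9. They are 8 of the 13 clade B symbols among the 27130 gene symbols of the read count tables. The group was picked on a measured result of these data, the higher SERPINB9 level in both H9 knockout clones. For the 8 members every comparison of an H9 clone with H9 wild type is therefore given as a description, with no p-value. Genes outside the 8 are tested there. SERPINB9 stood at 74.6 ± 2.87 CPM (SD, n = 3; read counts scaled by the TMM method to a common library size) in H9 wild type and at 361 ± 15.6 and 273 ± 15.01 in 9-1 and 9-D. Its values in H1 cells, the difference between the H9 clones and the difference between the wild-type lines were not used in that choice and are tested below.

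The libraries were made from polyadenylated RNA of H1 (WA01) and H9 (WA09), established human embryonic stem cell lines, in which the zinc finger transcription factor ZNF263 had been knocked out with Cas9. The replicated groups were H1 wild type, the H1 homozygous ZNF263 knockout 1-10, H9 wild type, and the H9 homozygous ZNF263 knockouts 9-1 and 9-D, with 3 libraries each. A separate set held 1 library each of H1 wild type, the H1 heterozygous ZNF263 knockout 1-5 and the homozygous 1-10. Each knockout is 1 named derivative of its line, called a clone below, so a difference that belongs to that clone and one that belongs to the loss of ZNF263 cannot be told apart within it. The labels state neither the edited part of ZNF263 nor whether the replicates were separate cultures, so p-values measure only the spread between these libraries, which may be technical.

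A serpin traps its target protease by offering a loop as a substrate and then changing its own shape with the enzyme bound, which ends the activity of both. Clade B serpins lack a classical secretion signal, and many protect the cell that makes them from its own or from incoming proteases. SERPINB9 inhibits granzyme B, the protease that cytotoxic T cells and natural killer cells deliver into target cells. SERPINB3 and SERPINB4, the squamous cell carcinoma antigens, are neighbouring near-copies: SERPINB3 inhibits cysteine cathepsins and SERPINB4 inhibits chymotrypsin-like proteases such as cathepsin G. The genes lie in a pair of clusters. In the RefSeq annotation SERPINB1, SERPINB9 and SERPINB6 follow each other on chromosome 6, and SERPINB5, SERPINB4, SERPINB3, SERPINB2 and SERPINB8 follow in that order on chromosome 18, with SERPINB12 and SERPINB13 between SERPINB5 and SERPINB4, and SERPINB11, SERPINB7 and SERPINB10 among the rest.

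The start regions of SERPINB9, SERPINB3 and SERPINB4 are shown because these are the 3 members with the widest differences between libraries. RefSeq (GRCh38.p14) held start regions for all 8 members, and the 250 bases before the listed start are printed 5′ to 3′ on the gene's strand. Capitals in SERPINB9 (chr6:2903310-2903559, minus strand) mark a match to GGGAGG. Capitals in SERPINB3 (chr18:63661894-63662143, minus strand) and SERPINB4 (chr18:63644257-63644506, minus strand) mark the 3 bases at which these 2 differ.
SERPINB9: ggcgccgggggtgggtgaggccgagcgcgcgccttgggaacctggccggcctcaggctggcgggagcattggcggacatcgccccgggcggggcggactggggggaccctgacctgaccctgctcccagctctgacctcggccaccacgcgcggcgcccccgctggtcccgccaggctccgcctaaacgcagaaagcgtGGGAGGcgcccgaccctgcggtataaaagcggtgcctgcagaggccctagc
SERPINB3: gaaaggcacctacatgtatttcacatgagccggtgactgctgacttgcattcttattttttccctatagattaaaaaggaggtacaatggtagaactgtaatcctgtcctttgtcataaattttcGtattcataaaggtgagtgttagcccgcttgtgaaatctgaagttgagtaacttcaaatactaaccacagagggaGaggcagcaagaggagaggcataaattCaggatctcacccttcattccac
SERPINB4: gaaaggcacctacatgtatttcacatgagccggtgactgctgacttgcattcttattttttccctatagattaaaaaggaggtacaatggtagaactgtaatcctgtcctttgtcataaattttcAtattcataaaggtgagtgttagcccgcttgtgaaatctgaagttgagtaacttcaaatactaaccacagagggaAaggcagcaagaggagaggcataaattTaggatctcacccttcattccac
The 2 chromosome 18 sequences were identical at 247 of 250 bases (98.8%). GGGAGG and GGAGGA, which can overlap each other, were searched on both strands as short strings of the G-rich kind described for ZNF263 binding. SERPINB9 held 1 GGGAGG, from 51 to 46 bases before its start, and no GGAGGA, and neither string was found in the windows of SERPINB3, SERPINB4, SERPINB1, SERPINB5 and SERPINB8. GGGAGG was also found in each of the 4 windows listed for SERPINB6 and at 2 places in that of SERPINB2, and GGAGGA in 1 window of each of these 2 genes. GGGAGG was found in 45.6% of all 35116 RefSeq windows of this length and GGAGGA in 31.8%, so a match is common. The coding sequences of SERPINB3 and SERPINB4 (GENCODE v29, longest coding transcript) were identical at 95.2% of 1170 aligned bases, and 23.9% of the 50-base stretches of the SERPINB3 transcript also occur in SERPINB4. No other pair among the 8 exceeded 72.7%, the value of SERPINB8 and SERPINB9. How the authors' counting shared reads between SERPINB3 and SERPINB4 is not given in the sources used here, so their split is uncertain, and their sum is given beside them.

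Libraries held 9.66 to 21.01 M read counts, so a count of 0 allows a level of up to 0.143 to 0.310 CPM in 1 library (3 counts). ZNF263 transcript stood at 40.6 ± 1.16 CPM in H1 wild type and 34.1 ± 1.83 in 1-10, and at 42.1 ± 2.40, 35.6 ± 1.49 and 36.0 ± 1.36 in H9 wild type, 9-1 and 9-D (n = 3 each). All 9 replicated knockout libraries were below all wild-type libraries of their line, and the transcript was still counted in each of them. The 5 pluripotency markers POU5F1, SOX2, NANOG, LIN28A and DNMT3B summed to between 4943 and 7307 CPM, and none was at 0 in any group. Their summed level was higher in the clones than in wild type without overlap, at 6852 to 7307 against 6200 to 6653 CPM in H1 and 5696 to 5866 against 4943 to 5082 CPM in H9. In H1, 1 of the 5 passed, beside 12.3% of all genes: DNMT3B (log2 fold change 0.21). In H9, 4 of 5 did for both clones together, beside 29.7% of all genes, from LIN28A (0.12) to NANOG (0.43).

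Among markers of other cells, the 7 trophoblast and amnion genes summed to 10.3 to 10.8 CPM in H1 wild type against 5.41 to 6.08 in 1-10, and to 9.73 to 10.3 in H9 wild type against 6.85 to 9.54 in the clones. Most of this sum was KRT7, a keratin gene, at 9.36 ± 0.517 against 4.94 ± 0.473 CPM in H1 (log2 fold change -0.95, SE 0.15, edgeR adjusted p = 2.94e-05) and 7.81 ± 0.155 against 5.00 ± 1.07 in H9 (-0.64, SE 0.14, edgeR adjusted p = 0.000935). KRT7 was the only gene of this list to pass with edgeR. It was 1 of 1 tested in H1, beside 12.3% of all genes, and 1 of 3 in H9, beside 29.7%. With DESeq2, 2 genes of the list passed in H9. GATA3, TFAP2A and HAND1 had higher means in the H9 clones than in H9 wild type, all under 1 CPM. Of these only GATA3 was tested with edgeR (0.73, SE 0.42, adjusted p = 0.194). The 7 fibroblast and feeder genes had overlapping sums, with members that moved in opposite ways. The sums were 864 to 905 against 784 to 933 CPM in H1 and 1021 to 1083 against 976 to 1178 CPM in H9. Most of each sum was THY1, VIM, COL1A2 and COL1A1. They stood at 368, 260, 157 and 99.3 CPM in H1 wild type and at 469, 212, 219 and 162 in H9 wild type. COL3A1 stood at 4.12 and 0.184 CPM in these 2 groups, and LUM had 5 and 2 counts and DCN 3 and 0. In H1, 3 of 5 passed, beside 12.3% of all genes, and were lower: COL3A1 (-1.67), COL1A2 (-0.28) and VIM (-0.21). In H9, 4 of 4 passed for both clones together (3 with DESeq2), beside 29.7% of all genes. COL1A1 (0.60) and VIM (0.21) were higher and COL1A2 (-0.25) and THY1 (-0.23) lower. The part of these markers in the serpin values was not tested, and in bulk RNA fewer cells of a type and less RNA per cell cannot be told apart.

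In H1, the replicated knockout 1-10 had a small rise of SERPINB9. Its level was 50.5, 44.3 and 39.8 CPM in the 3 wild-type libraries and 56.7, 57.3 and 49.1 CPM in the 3 libraries of 1-10. The groups overlapped, since the lowest 1-10 library lay under the highest wild-type library. The means were 44.9 ± 5.38 and 54.4 ± 4.57 CPM. On the log2 scale SERPINB9 was 0.28 higher in 1-10 (SE 0.08, 1.21-fold, edgeR adjusted p = 0.0182). This call rested on single libraries: the adjusted p was 0.190 without wild-type replicate 3 and 0.0869 without 1-10 replicate 1, within a range of 0.0016 to 0.190 over 11 alternatives.

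SERPINB4 was the other member that passed in H1. It had 11, 6 and 13 counts in wild type (0.877, 0.387 and 0.937 CPM) and 25, 30 and 14 counts in 1-10 (1.60, 1.75 and 1.47 CPM). All 1-10 libraries were above all wild-type libraries. SERPINB4 was 2.23-fold higher in 1-10, 1.16 on the log2 scale (SE 0.36, adjusted p = 0.0305). It entered the test through 1-10, where 3 libraries reached the filter level of 0.688 CPM against 2 of wild type, and with no filter the adjusted p was 0.0237. The call was lost in 5 of 11 alternatives, over which adjusted p ranged from 0.0237 to 0.171. It was 0.171 when wild-type replicate 2 was left out, 0.0502 when replicate 3 of wild type was left out, 0.0841 or 0.0821 when replicate 1 or 2 of 1-10 was, and 0.143 with DESeq2. Summed with SERPINB3, an alternative added after seeing the data, SERPINB4 gave a log2 difference of 1.18 (SE 0.35, adjusted p = 0.0238). SERPINB3 itself was too low for the test in H1, with 1, 0 and 1 counts in wild type and 2, 3 and 1 in 1-10.

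The remaining members did not pass in H1. SERPINB6, an inhibitor of thrombin and cathepsin G found in many tissues, stood at 12.8 ± 1.44 and 14.2 ± 0.352 CPM in wild type and 1-10 (log2 fold change 0.14, SE 0.11, adjusted p = 0.476). SERPINB1, an inhibitor of neutrophil elastase, stood at 13.6 ± 1.52 and 15.4 ± 1.92 CPM (0.19, SE 0.11, adjusted p = 0.286). SERPINB8, an inhibitor of furin, stood at 1.47 ± 0.394 and 1.78 ± 0.373 CPM (0.28, SE 0.30, adjusted p = 0.603). In all, 2 of the 5 members tested passed and both were higher, beside 12.3% of the 14897 genes tested, and their median log2 fold change was 0.28 against 0.003 over all genes. The other 3 members failed the filter on low counts, and since SERPINB4 entered through 1-10 the count is not read as support.

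The single H1 libraries allow no test. SERPINB9 was counted 370 times in the wild-type library, 590 times in the heterozygous 1-5 library and 471 times in the 1-10 library, which is 33.1, 45.7 and 35.9 CPM. The ratio to the wild-type library was 1.38 for 1-5 (95% counting interval 1.21 to 1.58) and 1.08 for 1-10 (0.945 to 1.25). SERPINB4 had 9, 28 and 12 counts, a ratio of 2.69 for 1-5 (1.24 to 6.49) and 1.14 for 1-10 (0.439 to 3.05). Of these single libraries, the one from the heterozygous clone was thus the higher of the 2 knockout libraries for both genes. SERPINB3 had 0, 7 and 3 counts. SERPINB12, outside the 8, had 7 counts in the 1-5 library and at most 2 in any other. These ratios compare libraries, not genotypes, and the intervals cover counting error only.

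**Figure D1:**
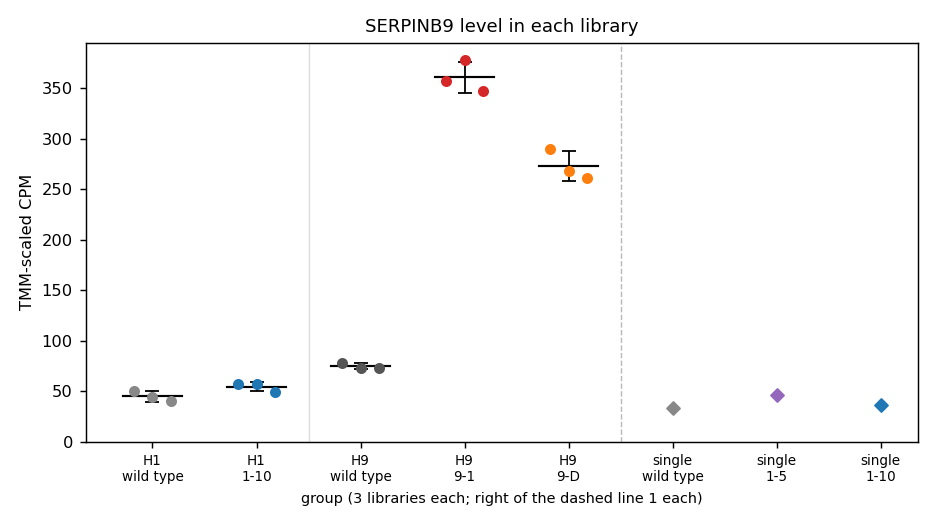
SERPINB9 level (TMM-scaled CPM, linear axis from 0) in each of 18 libraries by group. Points are libraries, lines with bars are means ± SD of 3 libraries, and diamonds right of the dashed line are the single H1 libraries. The 6 H9 clone libraries lie between 261 and 378 CPM, above the 3 H9 wild-type libraries between 72.8 and 77.9, and all 9-1 libraries lie above all 9-D libraries.

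In H9 as in H1, SERPINB9 had the highest level per length of the 8 members in every replicated group. Its CPM stood at 77.9, 72.8 and 73.1 CPM in the wild-type libraries, at 357, 378 and 348 CPM in 9-1 and at 289.7, 268 and 261 CPM in 9-D. Every clone library was above every wild-type library. The log2 fold change over wild type was 2.28 (SE 0.06, 4.85-fold) in 9-1, 1.87 (SE 0.06, 3.65-fold) in 9-D and 2.09 (SE 0.09, 4.25-fold) for both clones together, which placed SERPINB9 at rank 50 from the top of 15411 genes. In H1 the corresponding fold was 1.21, and the difference between the lines was not tested because the H9 contrast chose the gene.

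SERPINB4 and SERPINB3 had fitted folds in H9 as large as that of SERPINB9 or larger, at far lower levels. SERPINB4 stood at 0.962, 1.10 and 1.79 CPM in H9 wild type, at 7.95, 5.81 and 5.94 CPM in 9-1 and at 6.92, 6.54 and 6.94 CPM in 9-D. Its log2 fold change for both clones was 2.36 (SE 0.20, 5.13-fold, rank 39). SERPINB3 had 2, 6 and 9 counts in H9 wild type, 30, 68 and 41 in 9-1 and 43, 42 and 39 in 9-D, or 0.365 ± 0.217, 2.77 ± 0.543 and 2.58 ± 0.325 CPM. Its log2 fold change was 2.85 (SE 0.32, 7.21-fold, rank 23), and for the sum with SERPINB4 it was 2.49 (SE 0.17). No H9 wild-type library reached the filter level of 0.668 CPM for SERPINB3, while all clone libraries did. SERPINB3 thus entered this fit through the clones, where it was high. For both genes all 6 clone libraries lay above all wild-type libraries.

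The share of the SERPINB3 and SERPINB4 reads assigned to SERPINB3 was 22.1% in H9 wild type (17 of 77, exact 95% interval 13.4% to 33.0%) and 28.96% of 908 reads in the clones (26.03% to 32.04%). These intervals cover counting error only, and single clone libraries ranged more widely, from 21.6% to 36.0%. In H1 it was 6.25% in wild type (2 of 32, 0.766% to 20.8%) and 8% in 1-10 (6 of 75, 2.99% to 16.6%). In the single libraries it was 0 of 9 reads in wild type, 20% of 35 reads in 1-5 (8.44% to 36.9%) and 20% of 15 reads in 1-10 (4.33% to 48.1%). No difference in this share was tested.

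**Figure D2:**
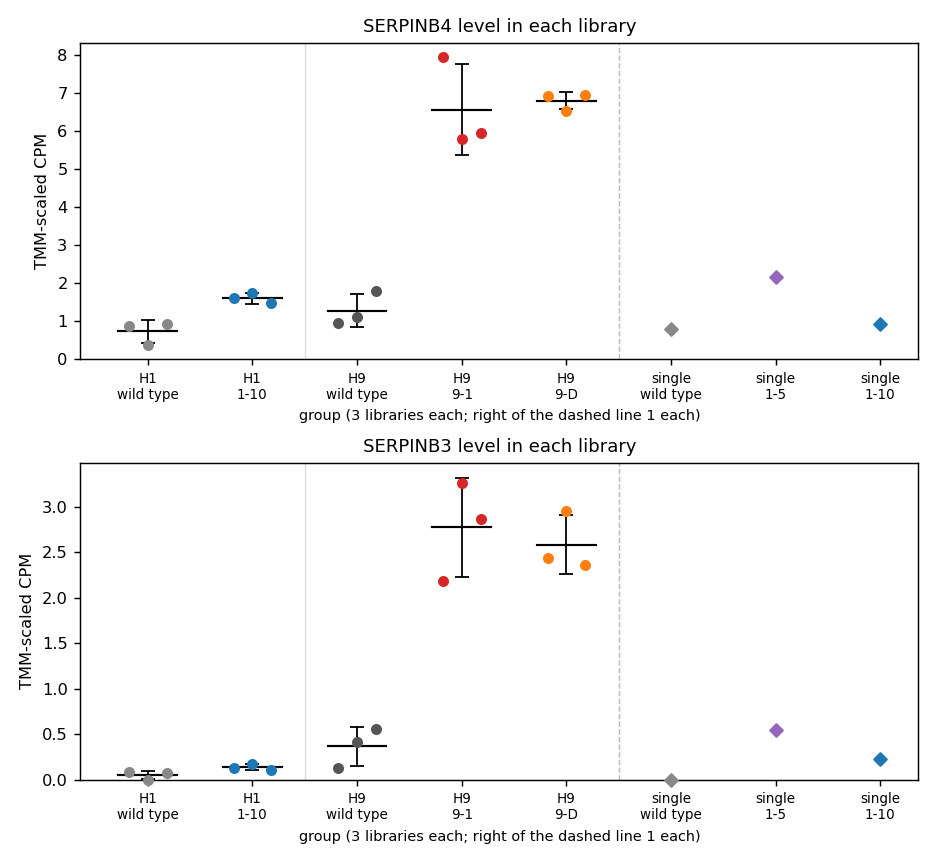
SERPINB4 (upper) and SERPINB3 (lower) levels (TMM-scaled CPM, linear axes from 0 with different ranges) in each library, with means ± SD of 3 libraries and the single H1 libraries as diamonds. All 6 H9 clone libraries lie above all other libraries, between 5.81 and 7.95 CPM for SERPINB4 and between 2.19 and 3.26 CPM for SERPINB3.

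SERPINB6 and SERPINB1, which flank SERPINB9 on chromosome 6, differed far less in H9. SERPINB6 stood at 18.8, 19.8 and 18.04 CPM in wild type, 19.6, 19.96 and 20.2 CPM in 9-1 and 22.5, 21.5 and 23.4 CPM in 9-D. All 3 libraries of 9-D lay above all wild-type libraries, while those of 9-1 overlapped them, with a log2 fold change of 0.25 (SE 0.09) against 0.08 (SE 0.09) in 9-1. SERPINB1 stood at 15.4, 15.01 and 15.4 CPM in wild type, 13.9, 14.8 and 14.6 CPM in 9-1 and 11.7, 13.3 and 12.2 CPM in 9-D. Here all clone libraries lay below all wild-type libraries, with log2 fold changes of -0.07 (SE 0.10) in 9-1 and -0.31 (SE 0.10) in 9-D. SERPINB8 ranged from 1.12 to 2.84 CPM over the 9 H9 libraries with overlapping groups.

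SERPINB2 and SERPINB5 were at or near 0. SERPINB2, known as plasminogen activator inhibitor 2, had no count in the 9 H9 libraries and counts only in wild-type replicate 2 (6), 1-10 replicate 2 (2) and the single 1-5 library (1) of H1. SERPINB5, known as maspin and an epithelial protein without shown protease inhibition, had between 0 and 4 counts in every library. Neither passed the filter in any comparison. Of the 6 members tested in H9, 3 were past the threshold for both clones together, all higher (SERPINB3, SERPINB4 and SERPINB9), beside 29.7% of 15411 genes. For 9-1 the count was the same 3 members beside 26.3%, and for 9-D it was 5 beside 23.5%, with SERPINB6 higher and SERPINB1 lower in addition, which dropped to 3 with DESeq2 or without any 1 of 4 libraries (wild-type replicates 1 and 3, 9-D replicates 1 and 3). The rule used these contrasts, so nothing is read from these counts.

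**Figure D3:**
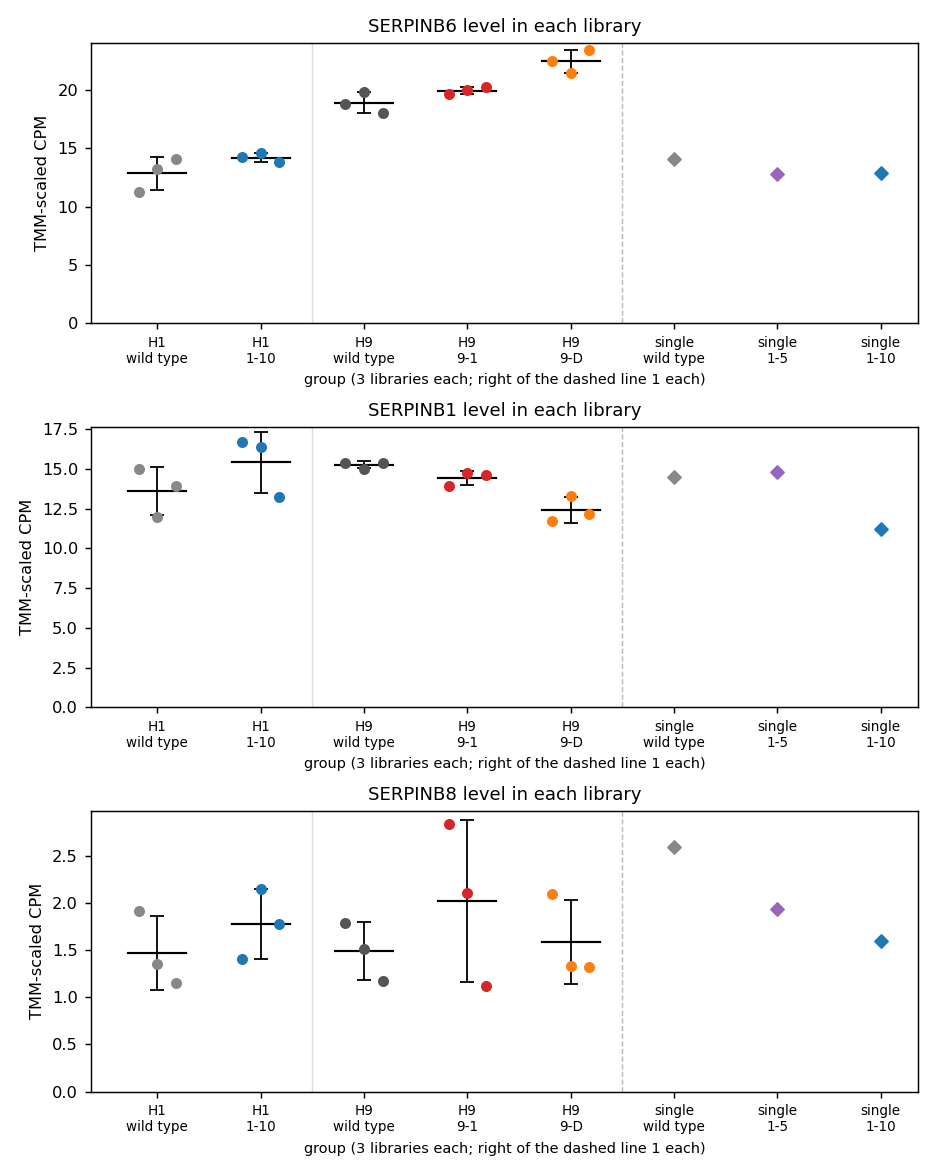
SERPINB6, SERPINB1 and SERPINB8 levels (TMM-scaled CPM, linear axes from 0 with different ranges) in each library, with means ± SD of 3 libraries and single libraries as diamonds. In H9 the 9-D libraries are the highest for SERPINB6, between 21.5 and 23.4 CPM, and the lowest for SERPINB1, between 11.7 and 13.3 CPM.

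The 2 H9 knockouts differed from each other in SERPINB9. All 3 libraries of 9-D (261 to 289.7 CPM) were below all 3 of 9-1 (348 to 378 CPM), and the fitted log2 difference was -0.41 (SE 0.06, adjusted p = 2.55e-05). The call held in all 14 alternatives, with log2 fold changes between -0.45 and -0.38 and a highest adjusted p of 0.00159. Over all genes, 0.305% of the 15411 tested (47 genes) passed this comparison. With 3 libraries per clone, this small share does not measure how close the clones were. SERPINB9 was the only 1 of 6 members tested to pass.

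For the other members the clone difference was not detected, and the errors bound it loosely. SERPINB4 had a log2 difference of 0.06 (SE 0.16, adjusted p = 0.970) and SERPINB3 of -0.14 (SE 0.24, adjusted p = 0.948). Their sum differed by 0.002 (SE 0.14, adjusted p = 0.999). SERPINB6 was higher in 9-D without overlap (0.17, SE 0.09, adjusted p = 0.772) and SERPINB1 lower without overlap (-0.23, SE 0.10, adjusted p = 0.660), and neither passed. SERPINB8 differed by -0.34 (SE 0.29, adjusted p = 0.875). The median over the 6 members was -0.18, against -0.003 over all genes.

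The wild-type lines also differed in several members. SERPINB9 was 1.65-fold higher in H9 than in H1 wild type (74.6 ± 2.87 against 44.9 ± 5.38 CPM, log2 fold change 0.73, SE 0.07, adjusted p = 2.33e-11), with no overlap. SERPINB6 was higher at 18.9 ± 0.900 against 12.8 ± 1.44 CPM (0.54, SE 0.10, adjusted p = 1.00e-05). SERPINB3 had 17 against 2 counts in all (log2 difference 2.73, SE 0.83). No wild-type library of either line reached the filter level for SERPINB3, which entered the fit through the H9 clones, so this value is a description. SERPINB4 passed at 1.28 ± 0.441 against 0.733 ± 0.302 CPM (0.83, SE 0.34, adjusted p = 0.0386). That last call was lost without H9 wild-type replicate 3 (adjusted p = 0.288), without H1 wild-type replicate 2 (0.264) and with DESeq2 (0.0646), within a range of 0.0206 to 0.288 over 19 alternatives. SERPINB1 (0.16, SE 0.11, adjusted p = 0.206) and SERPINB8 (0.02, SE 0.33, adjusted p = 0.964) did not pass.

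Leaving SERPINB3 aside, 3 of 5 members passed and all 3 were higher in H9 wild type, where 52.7% of the 15802 genes tested passed in either direction and 27.1% were higher. The lines were counted in separate tables, and line and whatever else separates those tables cannot be told apart.

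**Figure D4:**
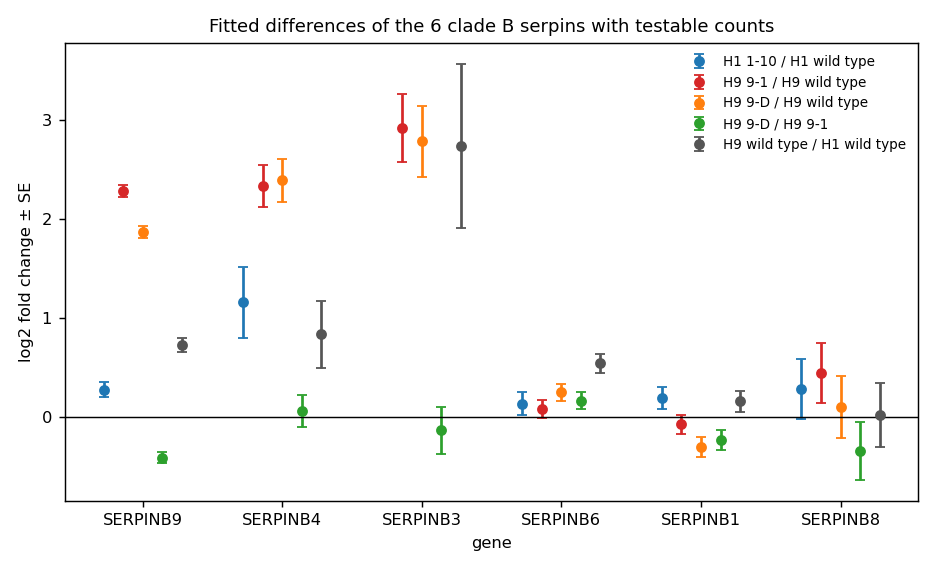
Fitted log2 fold changes (points) with standard errors (bars) of the 6 members with testable counts in 5 comparisons, each named first group over second. SERPINB9, SERPINB4 and SERPINB3 lie between 1.87 and 2.92 in both H9 clones over H9 wild type, which is the contrast the group was picked on, and between the clones SERPINB9 lies at -0.41, the only member to pass there.

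Levels can be compared between genes only per length. In H1 wild type SERPINB9 stood at 10.9 CPM per kilobase of its transcript, SERPINB6 at 8.20 and SERPINB1 at 5.20, and in H9 wild type the values were 18.1, 12.1 and 5.83. SERPINB4 (0.419 and 0.734) and SERPINB8 (0.424 and 0.430) were close to each other in H1, and SERPINB3 (0.0285 and 0.206), SERPINB2 (0.0598 and 0) and SERPINB5 (0.0354 and 0) were lowest. In H9 9-1 and 9-D, SERPINB9 reached 87.6 and 66.3 CPM per kilobase. Among the replicated groups SERPINB9 was first with either length, but over the union of its coding transcripts' exons (8148 bases against 1566) SERPINB6 fell to 1.58 in H1 wild type, under SERPINB1, so the order of that pair rests on the length used.

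The proteases that clade B serpins are known to inhibit included several with no or few counts. Granzyme B (GZMB) had no count in H1 wild type, H9 wild type or 9-1, 1 count in 1-10 and 3 counts in 9-D, and the neutrophil elastase gene ELANE was at 0 in every replicated group. Of the 18 listed protease genes present, 6 were tested in H1. By edgeR or DESeq2 0 passed, beside 12.3% of all genes with edgeR, and 1 had an unadjusted p under 0.05. In H9, 4 of 7 passed for both clones together, and 2 did with DESeq2, beside 29.7% of all genes. CTSK, the bone-resorbing cathepsin K, was lower, at 2.46 ± 0.635 CPM (n = 6) against 5.85 ± 0.717 (n = 3; log2 fold change -1.26, SE 0.17, adjusted p = 1.24e-06). PLAT and PLAU, the tissue and urokinase plasminogen activators that SERPINB2 inhibits, were lower by smaller amounts (-0.44, SE 0.10, adjusted p = 0.00169 and -0.20, SE 0.07, adjusted p = 0.0380). The other call was GZMA, granzyme A, at 0.837 ± 0.380 against 0.361 ± 0.197 CPM (log2 difference 1.18, SE 0.45). No wild-type library reached the filter level for GZMA and 3 clone libraries did. It thus entered through the group where it was high, and its value is a description. The count of 4 of 7 includes GZMA and is not read as a result about these genes. Leaving GZMA aside, 3 passed and all were lower. Between the clones 0 of the 7 passed, by edgeR or DESeq2, beside 0.305% of all genes with edgeR, and 1 had an unadjusted p under 0.05.

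No serpin of another clade passed as higher in a knockout group. In H1, 1 of 8 tested passed, beside 12.3% of all genes: SERPINF1, which encodes pigment epithelium-derived factor, was lower in 1-10 (23.5 ± 1.23 against 33.2 ± 3.27 CPM, log2 fold change -0.51, SE 0.09, adjusted p = 0.000113). In H9, 4 of 9 passed for both clones together, beside 29.7% of all genes, and all were lower, among them SERPINA5 (-0.82, SE 0.23, adjusted p = 0.00627), SERPINF1 (-0.36, SE 0.09, adjusted p = 0.0015) and SERPING1 (-0.26, SE 0.07, adjusted p = 0.00309). Their median over the 9 was -0.29, against -0.004 over all genes. SERPING1 encodes the C1 inhibitor of complement. The 5 clade B serpins outside the 8 (SERPINB7, SERPINB10, SERPINB11, SERPINB12 and SERPINB13) had at most 2 counts in any replicated library and were not tested.

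Listed genes around the chromosome 6 cluster had smaller fitted differences than SERPINB9 in H9. In H1, 0 of 9 tested neighbours passed with edgeR or DESeq2, beside 12.3% of all genes with edgeR, and 0 had an unadjusted p under 0.05. In H9, 3 of 10 passed for both clones together, a share near the 29.7% of all genes: the tubulin genes TUBB2A (209 ± 13.1 against 133 ± 1.84 CPM, log2 fold change 0.65, SE 0.05, adjusted p = 6.02e-11) and TUBB2B (0.31, SE 0.05, adjusted p = 1.61e-05) were higher and BPHL, a hydrolase gene, was lower (-0.36, SE 0.07, adjusted p = 0.000381). The pseudogene SERPINB9P1 had at most 8 counts in any library. Reads from SERPINB9 and from an antisense gene that RefSeq places beside it cannot be told apart, as the use of strand in counting is not given in the sources used here.

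Around the chromosome 18 cluster, 1 of 5 neighbours passed in H1, beside 12.3% of all genes: VPS4B, a membrane-sorting ATPase gene, was higher in 1-10 (63.3 ± 4.03 against 52.4 ± 2.65 CPM, 0.27, SE 0.07, adjusted p = 0.00837). In H9, VPS4B (0.22, SE 0.06), PHLPP1 (0.15, SE 0.06) and the survival gene BCL2 (0.50, SE 0.14) were higher and HMSD lower (-0.90, SE 0.29) in the fit of both clones together, with adjusted p between 0.00494 and 0.0422, making 4 of 5 beside 29.7% of all genes. Per clone, VPS4B passed in both, BCL2 and PHLPP1 in 9-1 and not in 9-D (adjusted p = 0.0681 and 0.195), and HMSD in 9-D and not in 9-1 (adjusted p = 0.0776).

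Genes of the NF-kB response, a pathway known to induce SERPINB9 and SERPINB2 in other cells, included none that passed as higher in a knockout. In H1, 1 of 9 tested passed with edgeR, a share near the 12.3% of all genes, and 0 with DESeq2. That gene was ICAM1, an adhesion molecule gene, which was lower (4.70 ± 1.28 against 7.30 ± 1.15 CPM, -0.67, SE 0.18, edgeR adjusted p = 0.0119). In H9, 3 of 8 passed for both clones together (2 with DESeq2), beside 29.7% of all genes, and all were lower: NFKB2 (18.3 ± 0.955 against 30.5 ± 3.62 CPM, -0.73, SE 0.08, adjusted p = 8.14e-09), NFKB1 (-0.45, SE 0.10, adjusted p = 0.000494) and CCL2 (-0.82, SE 0.31, adjusted p = 0.0444). The median of the 8 was -0.34. These are transcript levels, and a link of the pathway to the serpin values was not tested.

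Markers of cells known for these serpins were near 0. The 9 cytotoxic lymphocyte genes summed to 0.432 to 0.957 CPM in H1 wild type and 0.629 to 1.09 in 1-10, and to 0.862 to 1.22 CPM in H9 wild type and 1.39 to 2.69 in the H9 clones, with no overlap in H9. CD8A, a T cell surface gene, had 8 counts in the 3 H9 wild-type libraries and 36 in those of each clone. GZMA had 17, 46 and 36 counts in H9 wild type, 9-1 and 9-D. The rest of the list did not rise in this way in both clones. In the same order PTPRC had 7, 19 and 8 counts, PRF1 8, 7 and 6, and NKG7 2, 3 and 3. GNLY had 3, 0 and 5, GZMB 0, 0 and 3, CD3E 1 in each group, and CD3D 0 in each. The part of these markers in the serpin values was not tested either. The 7 monocyte and macrophage genes summed to at most 5.03 CPM, the highest being an H1 wild-type library. The 8 squamous epithelium genes summed to 2.46 to 4.68 CPM over the replicated libraries, with KRT6A at 0 in every group. Most of this sum was SFN, with means of 2.90 to 3.81 CPM in the replicated groups. Among the rest the highest group mean was 0.0962 CPM, for DSG3 in 9-1. In the single 1-5 library, which had the highest SERPINB3 and SERPINB4 of its set, the 8 genes summed to 5.11 CPM. The sum was 2.51 CPM in the single wild-type library and 2.67 in the single 1-10 library. KRT14, KRT6A, KRT13, DSG3 and IVL were at 0 in the 1-5 library. KRT5 was counted in it and was at 0 in the single wild-type and 1-10 libraries. TP63 was at 0 only in the single wild-type library of this set.

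Genes with levels most like SERPINB9 over the 15 replicated libraries were ranked by Pearson's r of log2 CPM, as a description over libraries that fall into a few groups. FAM20A, a Golgi protein gene, came first (r = 0.988, and 0.991 over the 9 H9 libraries), at 4.52 ± 0.308 and 5.93 ± 1.08 CPM in H1 wild type and 1-10, and 6.08 ± 0.343, 36.4 ± 5.43 and 30.6 ± 3.23 CPM in H9 wild type, 9-1 and 9-D. ADAMTS14 (0.984), TFE3 (0.980), GPM6B (0.980) and CCDC120 (0.980) followed. Among the members SERPINB3 had r = 0.972 (rank 12 of 15801 genes) and SERPINB4 0.939 (rank 114). SERPINB6 had 0.827, SERPINB8 0.236 and SERPINB1 -0.30. Within the lines the values differed, given here over the 6 H1 libraries and then the 9 H9 libraries. For SERPINB6 r was 0.0970 and 0.592, for SERPINB1 0.750 and -0.51, and for SERPINB8 0.698 and 0.324. For SERPINB3 it was 0.693 and 0.939, and for SERPINB4 0.658 and 0.955. Over the H1 libraries SERPINB3 and SERPINB4 were thus below SERPINB1 and SERPINB8. SERPINB3 had at most 3 counts in any of these H1 libraries, so its value there rests on few counts.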

How the data were processed

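RNA of 18 libraries was compared in 8 groups. The deposited tables hold whole read counts per gene symbol. Per the submitters' processing notes the authors used STAR, featureCounts, DESeq2 and the build hg19, and versions are not given in the sources used here. The authors' deposited comparison tables hold log2 fold changes and adjusted p-values, and they were used only as a side check.

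Here edgeR 4.0.16 (R 4.3.3) was run on all genes with TMM scaling, filterByExpr, the quasi-likelihood F test, Benjamini-Hochberg adjustment and a threshold of 0.05. Standard errors are the log2 fold change over the square root of F. CPM levels were scaled by TMM over all 18 libraries. H1 was fitted alone, H9 as 3 groups (both clones together against wild type in a separate fit), and the wild-type lines over 15 libraries. All members are named, and, from each list outside the cell markers, every gene up to 4 that passed in H1 or for both H9 clones together, except 1 gene that is not reported here. Members and lists were chosen with earlier results of these data known. Alternatives were other scaling, no filter, DESeq2 1.42.0, a replicate block, single libraries added, the clones alone, and each library left out. The test was tried on simulated counts first. Chi-square per gene between replicates was 1.83 to 5.94, so replicates varied beyond counting error. Sequences came from RefSeq GRCh38.p14 and GENCODE v29, which are another build than the counts. Protein sequences were not used here.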

Additional observations from a re-analysis of the deposited data

Results flagged for a closer look

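SERPINB9 differed between the H9 knockouts 9-D and 9-1 under the same contrast with H9 wild type: the test of the clone difference gave a log2 value of -0.41 (SE 0.06, edgeR adjusted p = 2.55e-05), and 3 of 3 libraries of 9-D were lower than every 9-1 library. Groups of 3 libraries are too small for a check of single outlying libraries.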

How the results depend on the processing

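The number of members passing in H1 was 2, and it was 1 with DESeq2 and ranged from 0 to 2 with 1 library left out. Over all genes in H1, 1827 passed, against 1210 with DESeq2, 2926 with the replicate block and 949 to 2100 with 1 library left out. Between the H9 clones 47 genes passed, against 25 to 53 with 1 library left out. In 9-D against H9 wild type 5 members were past the threshold, against 3 with DESeq2 and 3 to 5 with 1 library left out. The cause of these shifts was not tested, beyond the fewer samples of the fits that leave 1 out. With libraries left out, 4 small differences changed sign: SERPINB8 between the wild-type lines (-0.13 to 0.23) and in 9-D against H9 wild type (-0.15 to 0.26), SERPINB3 between the H9 clones (-0.26 to 0.00568) and SERPINB4 between the H9 clones (-0.0429 to 0.22). Same-numbered replicates deviated together at most weakly (0 of 12 pairs over a correlation of 0.1, from -0.03 to 0.08). Still, 12 of 15 libraries correlated best with their own number, so an effect shared by a replicate number is not excluded. The main fits did not take the numbers as pairs, and the replicate block above is the fit that allows for them. Other scaling and no filter on low counts left the number of members passing within 1.5 times in every comparison. Counts under about 30 limit SERPINB3, SERPINB4 and SERPINB8 in H1 and in H9 wild type, where small folds were not detectable at this depth. In the authors' deposited table for H1, SERPINB9 had a log2 fold change of 0.29 (adjusted p = 0.0174) and SERPINB4 of 1.16 (adjusted p = 0.0986).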
